A study of Zea mays with 9 samples.

Results

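The embryo-surrounding region is a small group of endosperm cells that line the cavity in which the maize embryo grows. Its marker genes Esr1 (GRMZM2G046086), Esr2 (GRMZM2G315601), Esr3 (GRMZM2G140302) and Esr6 (GRMZM2G048353) were followed here as 4 of 110028 counted gene models, taken by identifier, and each had a row in every library. Poly(A) RNA of the inbred B73 was sequenced on the SOLiD platform from self-pollinated greenhouse plants. Whole kernels were taken unpollinated (0 days after pollination, DAP) and at 2, 3, 4 and 6 DAP, and endosperm cut free of embryo and pericarp was taken at 8, 10 and 12 DAP. With 1 biological sample at each stage and a technical pair (a and b) at 0 DAP, there were 9 libraries for 8 stages. No stage carried a mutation or a treatment.

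Esr1, Esr2 and Esr3 encode small secreted proteins with a CLE motif, and the CLE family of plant peptide signals takes the last part of its name from these maize genes. CLE peptides are perceived at the cell surface by leucine-rich-repeat receptors, best known in maize from the control of meristem size. Esr6 encodes a small cysteine-rich protein of the defensin type and has no CLE motif. The name table was used for names and neighbours only, and its build may differ from that of the counted models, which is not given. In it Esr2, Esr1 and Esr3 lie beside each other on 1 chromosome in that order with a pseudogene record between Esr1 and Esr3. Esr6 lies on a different chromosome. The records of GRMZM2G046086 and GRMZM2G315601 share older ESR1 symbols, so the models are named here as their identifiers are paired above. The 3 CLE genes are near copies of each other, and how reads that fit several places were counted is not given in the sources used here, so the split of reads among them is uncertain.

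Libraries held between 17716275 and 40145710 counted reads. Levels are given as the normalised read count, which is CPM with the library size scaled by TMM, a method that lines up the bulk of the genes. The 100 most counted models took 6.89% to 9.43% of reads in the libraries from 0 to 6 DAP, 19.6% at 8 DAP, 55.5% at 10 DAP and 85.8% at 12 DAP. A level relative to the bulk of genes and a plain CPM therefore differ greatly at the last stages, and both are given where they part. A model was called higher or lower when its normalised read count plus 1 differed at least 4-fold, the higher level was at least 10, and the exact 95% interval of the ratio excluded 1. With 1 sample per stage there is no p-value, and intervals cover counting error only. The technical pair gave a measure of spread between libraries, taken on level plus 1. For 95% of models it stayed within a ratio of 1.63 at a mean level below 1, 2.13 at 1 to 10, 1.58 at 10 to 100 and 1.33 above 100. A level of 10 equals 286 and 395 reads in that pair, but 191, 159 and 56.8 reads at 8, 10 and 12 DAP. Counting error at the same level is thus larger at these stages, most of all at 12 DAP, and the technical spread may be too narrow there.

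All 4 Esr genes were near silent in the unpollinated kernel and at 2 DAP. Esr2 had 9 and 15 reads in the 0 DAP replicates and 7 reads at 2 DAP, levels of 0.315, 0.380 and 0.230. Esr1 had 4 and 3 reads and then 2 reads, Esr3 had 1 and 1 and then 0, and Esr6 had 1 and 1 and then 2. In these libraries 3 reads are worth a level of 0.0759 to 0.105, so Esr3 and Esr6 were at or under that floor up to 3 DAP, where they had 3 and 0 reads.

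At 4 DAP the read numbers of all 3 CLE genes were above those of every earlier library, though still low. Esr2 had 103 reads at 4 DAP (level 3.47) against 32 at 3 DAP (level 0.942), a ratio of 3.69 (95% interval 2.46 to 5.67). On level plus 1 the ratio was 2.30, which exceeded the technical spread. Esr1 had 36 reads at 4 DAP against 1 at 3 DAP, which on levels of 1.21 and 0.0294 was also beyond that spread. Esr3 had 18 against 3 reads, a ratio of 6.88 (95% interval 2.01 to 36.4), and Esr6 had 5 against 0. On level plus 1 the ratios of Esr3 and Esr6 were 1.48 and 1.17, neither beyond the technical spread. No Esr model passed the rule at 2, 3 or 4 DAP against the stage before it, since none reached a level of 10. Over all detected models, 0.387% were higher and 0.577% lower at 2 against 0 DAP, 0.347% and 0.322% at 3 against 2 DAP, and 0.412% and 0.233% at 4 against 3 DAP. The whole-kernel libraries up to 4 DAP carried zein reads at 0.0612% to 0.0688% of the 12 DAP level, at the median of 26 zein storage protein genes, and the 6 DAP library carried 0%. The 4 DAP levels of the Esr genes were 34.5% (Esr1), 4.23% (Esr2), 21.6% (Esr3) and 1.84% (Esr6) of their own 12 DAP levels. In the unpollinated kernel these values were 2.92%, 0.429%, 1.04% and 0.321%, on few reads, and were also above the zein share. The source of these early reads was not tested.

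At 6 DAP, the last whole-kernel stage, all 4 Esr genes rose. Esr1 reached 36.5 (1995 reads) against 1.21 at 4 DAP, a rise of 30.1-fold (95% interval 21.6 to 43.0). Esr2 reached 97.3 (5316 reads) against 3.47, a rise of 28.0-fold (95% interval 23.0 to 34.4). Esr3 reached 27.4 (1497 reads) against 0.607, a rise of 45.1-fold (95% interval 28.4 to 76.3). The defensin gene Esr6 reached 23.0 (1259 reads) against 0.169, a rise of 136.5-fold (95% interval 58.4 to 421). The interval of Esr6 does not overlap those of Esr1 and Esr2, so by counting error its ratio was the larger, although it rests on 5 reads at 4 DAP. On level plus 1 the ratios were 16.9 (Esr1), 22.0 (Esr2), 17.7 (Esr3) and 20.6 (Esr6), so on that scale Esr6 was not the steepest. The 4 of 4 models called higher here stand beside 354 of 44687 detected models, or 0.792%, with 0.499% called lower. Against 2, 3 and 4 DAP each, 4 of 4 were higher as well, beside 230 detected models (0.515%), with 0.159% lower. Against 2 DAP, where Esr3 had 0 reads, its rise was 277-fold if 3 reads are set there, and its exact 95% lower limit was 225. Against 3 DAP, where Esr6 had 0 reads, its rise was 261-fold on the same footing, and its exact 95% lower limit was 212.

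**Figure D1:**
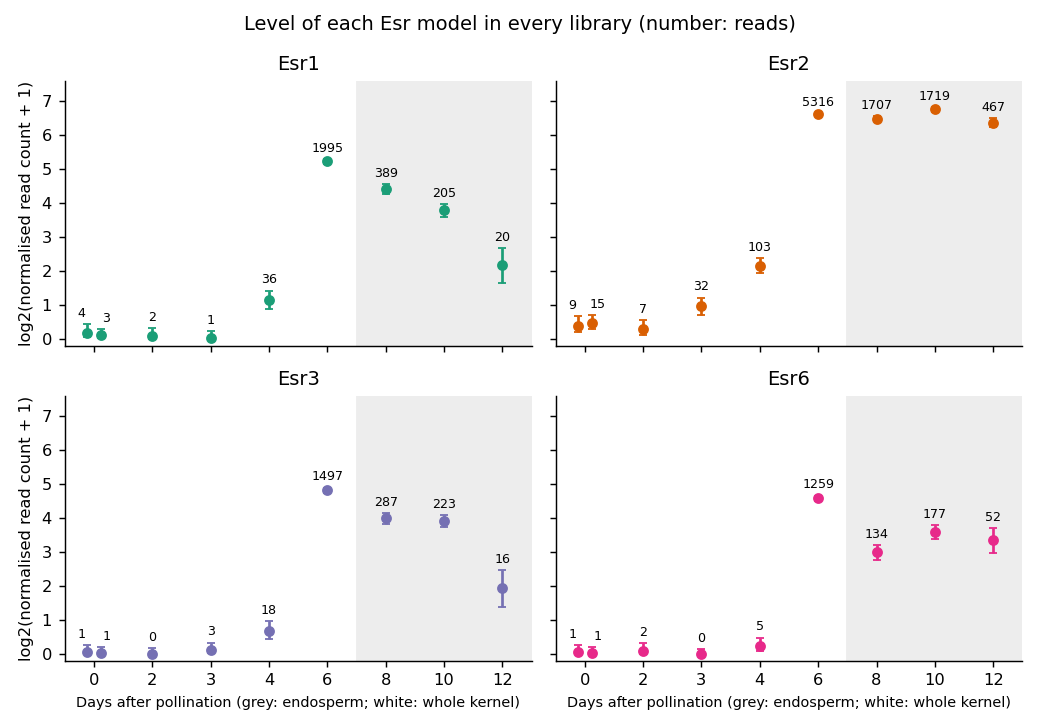
Normalised read count of each Esr model in each of the 9 libraries, as log2(level + 1) against days after pollination, with the number of reads above each point and bars for the exact 95% Poisson interval of the reads; both 0 DAP replicates are shown side by side. All 4 genes lie near 0 up to 3 DAP, except Esr2 at 3 DAP (level 0.942, 32 reads). All 4 jump at 6 DAP, after which Esr2 stays near 6.5 while Esr1 and Esr3 come down to near 2 at 12 DAP.

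From 6 to 8 DAP the sample changes from whole kernel to dissected endosperm, so age and tissue cannot be told apart at this step, and in any of these bulk samples fewer cells of a type cannot be told apart from less RNA per cell. No Esr model passed the rule at this step, at which 1.67% of detected models were higher and 3.21% lower. The genes nevertheless differed from one another by more than counting error. Esr2 had 89.2 in 8 DAP endosperm against 97.3 in 6 DAP kernels, a ratio of 0.917 (95% interval 0.868 to 0.969) that lay within the technical spread. Esr1 had 20.3 against 36.5, a ratio of 0.557 (95% interval 0.498 to 0.621), and Esr3 had 15.0 against 27.4, a ratio of 0.548 (95% interval 0.481 to 0.622). Esr6 had 7.0 against 23.0, a ratio of 0.304 (95% interval 0.253 to 0.364). The ratios of Esr1, Esr3 and Esr6 exceeded the technical spread, and those of Esr1 and Esr3 were alike. By library total all 4 ratios were smaller, at 0.437, 0.720, 0.430 and 0.239 for Esr1, Esr2, Esr3 and Esr6.

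Within the dissected endosperm Esr1 and Esr3 fell, whereas Esr2 and Esr6 did not pass the rule. Esr1 had 20.3, 12.9 and 3.52 at 8, 10 and 12 DAP, on 389, 205 and 20 reads. Esr3 had 15.0, 14 and 2.81, on 287, 223 and 16 reads. At 12 against 8 DAP the level of Esr1 was 0.173-fold (95% interval 0.105 to 0.271) and that of Esr3 0.188-fold (95% interval 0.106 to 0.310). Counted as 1 feature, the 3 CLE genes had a ratio of 0.710 (95% interval 0.644 to 0.782) and did not pass the rule. Esr2 held most of these reads, so the sum does not test the calls of Esr1 and Esr3. Both calls still depend on the uncertain split of reads among the copies. These 2 of 4 models called lower stand beside 1.8% of all detected models, with 1.55% higher. Most of the difference in both genes lay between 10 and 12 DAP, where the ratios were 0.273 and 0.201, while at 10 against 8 DAP neither ratio exceeded the technical spread. No Esr model passed the rule at either of these steps, at which 0.897% of detected models were higher and 0.68% lower (10 against 8 DAP) and 0.667% higher and 0.51% lower (12 against 10 DAP).

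Esr2 did not differ beyond the technical spread between any neighbouring endosperm stages on this scale. It had 89.2, 108 and 82.2 at 8, 10 and 12 DAP, on 1707, 1719 and 467 reads, and its level at 12 against 8 DAP was 0.921-fold (95% interval 0.829 to 1.02). Its 4 levels from 6 to 12 DAP could not be ordered, since in the order 10, 6, 8 and 12 DAP each differed from the next by less than the technical spread. Esr6 had 7.0, 11.1 and 9.15 at 8, 10 and 12 DAP, on 134, 177 and 52 reads, and these 3 could not be ordered either.

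In plain CPM, however, all 4 genes had a lower value at each stage after 6 DAP. Esr2 had 132, 95.3, 57.1 and 12.8 CPM at 6, 8, 10 and 12 DAP. Esr1 had 49.7, 21.7, 6.81 and 0.547, Esr3 had 37.3, 16.0, 7.41 and 0.438, and Esr6 had 31.4, 7.48, 5.88 and 1.42. On this scale Esr2 too was lower at 12 than at 8 DAP by the rule, with a ratio of 0.134, and all 4 genes had their highest level at 6 DAP, whereas on the TMM scale the highest value of Esr2 was at 10 DAP. The median over all detected models moved by -1.46 on the log2 scale at 12 against 8 DAP by library total, and by -0.07 under TMM.

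**Figure D2:**
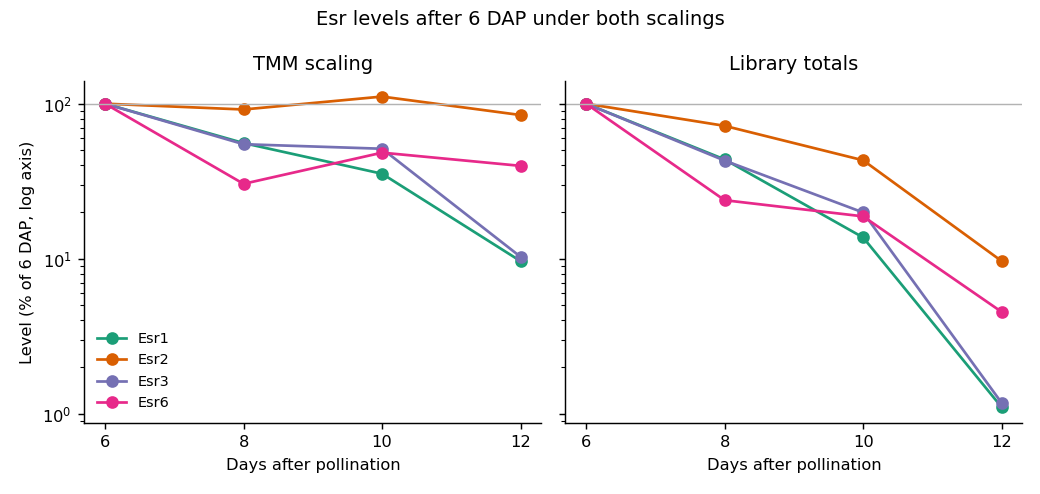
Level of each Esr gene from 6 to 12 DAP as a percent of its own 6 DAP level, on a log axis, under TMM scaling (left) and by library totals (right). At 12 DAP Esr2 stands at 84.5% under TMM and 9.65% by library total, Esr6 at 39.7% and 4.54%, Esr1 at 9.64% and 1.10%, and Esr3 at 10.3% and 1.17%.

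The share of each gene in the summed reads of the 4 genes does not depend on the scaling of the libraries. Esr2 made up 52.8% of Esr reads at 6 DAP (exact binomial 95% interval 51.8 to 53.8), 67.8% at 8 DAP (66.0 to 69.6), 74.0% at 10 DAP (72.1 to 75.7) and 84.1% at 12 DAP (80.8 to 87.1). Esr1 made up 19.8% (19 to 20.6), 15.5% (14.1 to 16.9), 8.82% (7.70 to 10.0) and 3.60% (2.21 to 5.51) at these stages. Esr3 made up 14.9% (14.2 to 15.6), 11.4% (10.2 to 12.7), 9.60% (8.43 to 10.9) and 2.88% (1.66 to 4.64). Neighbouring intervals of Esr2, each above the one before, and of Esr1, each below it, do not overlap, whereas those of Esr3 overlap between 8 and 10 DAP. The share of Esr6 took another course, with 3.09% at 4 DAP (1.01 to 7.06), 12.5% at 6 DAP (11.9 to 13.2), 5.32% at 8 DAP (4.48 to 6.27), 7.62% at 10 DAP (6.57 to 8.77) and 9.37% at 12 DAP (7.08 to 12.1). At 0, 2 and 3 DAP the 4 genes together had 35, 11 and 36 reads, of which Esr2 held 68.6% (50.7 to 83.1), 63.6% (30.8 to 89.1) and 88.9% (73.9 to 96.9).

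**Figure D3:**
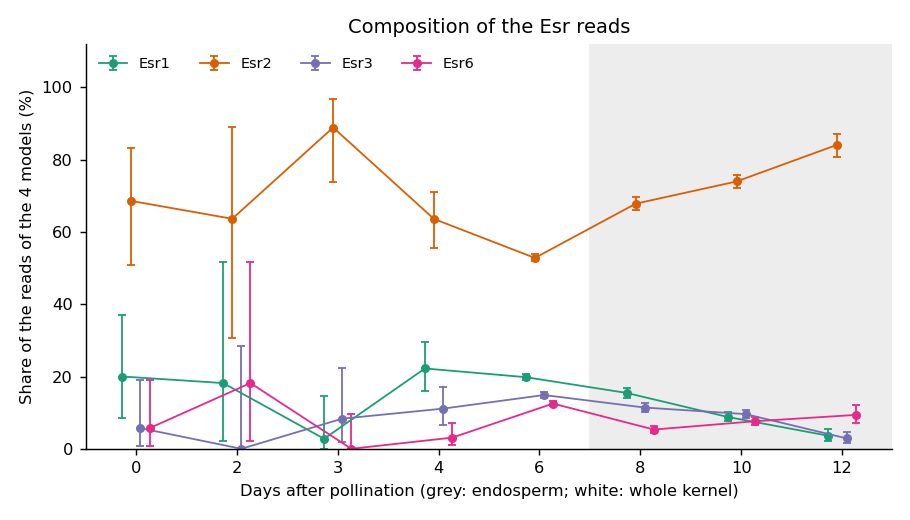
Share of each gene in the reads of the 4 Esr models, in percent, by days after pollination, with exact 95% binomial intervals and the 0 DAP replicates summed. From 6 to 12 DAP the Esr2 share grows at each stage, to 84.1% at 12 DAP, while Esr1 and Esr3 end at 3.60% and 2.88%, and the Esr6 share is 5.32% at 8 DAP against 12.5% at 6 DAP.

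Among the CLE genes, Esr1 and Esr3 stayed close to each other, with 10 DAP the exception, while both lost ground to Esr2. There were 75.0 Esr3 reads per 100 Esr1 reads at 6 DAP (95% interval 70.1 to 80.3), 73.8 at 8 DAP (63.1 to 86.2), 109 at 10 DAP (89.6 to 132) and 80.0 at 12 DAP (38.8 to 162), so that only the 10 DAP interval lies apart from that at 6 DAP. Per 100 Esr2 reads there were 37.5, 22.8, 11.9 and 4.28 Esr1 reads and 28.2, 16.8, 13 and 3.43 Esr3 reads at 6, 8, 10 and 12 DAP. Of Esr6 there were 23.7, 7.85, 10.3 and 11.1 reads per 100 of Esr2 at the same stages. No other model had counts within 2% of those of an Esr gene in all libraries where that gene had at least 20 reads. Over the 8 stages, the log2 levels of Esr1 and Esr3 had a Pearson correlation of 0.995, those of Esr2 and Esr6 0.964, and the other pairs 0.920 to 0.940, a description over stages that share the silent early libraries.

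The androgenic embryo genes ae1 and ae3, endosperm genes reported from or near the embryo-surrounding region, had few reads. Ae1 had 4, 0, 26, 8, 170, 57, 37 and 2 reads from 0 to 12 DAP, with levels of 3.11 at 6 DAP, 2.98 at 8 DAP, 2.33 at 10 DAP and 0.352 at 12 DAP, of which those at 6, 8 and 10 DAP could not be ordered. Ae3 had 85 reads at 6 DAP (level 1.56), 3 reads at 0 DAP and 0 at each other stage. Neither reached the level of 10 that the rule asks for. Of the 19942 models that reached a level of 10 at some stage, 16.2% were highest at 6 DAP, against 3 of the 4 Esr genes.

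The basal transfer layer, another endosperm domain, was set beside the Esr genes in the same libraries. Of its 14 listed genes 13 were called higher at 6 against 4 DAP, none being highest at 6 DAP, and 9 were higher again at 8 against 6 DAP. The antimicrobial peptide gene betl2 had 341, 1714, 984 and 293 at 6, 8, 10 and 12 DAP, and the maternally expressed gene meg1 had 71.0, 515, 186 and 103. The gene betl-9 took another course, with 102, 1063, 930 and 1057 at these stages. The list's median log2 difference at 8 against 6 DAP was 2.36, against -0.82 for the 4 Esr genes and -0.08 for all detected models. At 12 against 8 DAP 9 transfer layer genes were lower, with a median of -2.18. The Esr genes fell into unlike pairs at this step, with log2 differences of -2.24 (Esr1) and -2.07 (Esr3) and of -0.12 (Esr2) and 0.34 (Esr6).

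The ratio of Esr reads to transfer layer reads, which is free of library scaling, was far higher at 4 and 6 DAP than at 8 DAP. Per 100 reads of the 14 transfer layer genes there were 2.80 (95% interval 1.94 to 3.92), 1.19 (0.593 to 2.14) and 2.17 (1.52 to 3.02) Esr reads at 0, 2 and 3 DAP. There were 12.9 at 4 DAP (10.9 to 15.3) and 14.6 at 6 DAP (14.3 to 14.9), and these intervals overlap. There were 2.09 at 8 DAP (2.01 to 2.18), 4.52 at 10 DAP (4.34 to 4.72) and 4.80 at 12 DAP (4.40 to 5.23). With all 14 genes counted, the ratio at 8 DAP was not set apart from those at 0, 2 and 3 DAP. The invertase gene mn1 and the regulator gene mrp1 held many of the list's reads before 6 DAP, and without them, a choice made after their reads were seen, the ratio was 24.3 at 4 DAP (20.3 to 28.9) against 15.5 at 6 DAP (15.2 to 15.9) and 2.14 at 8 DAP (2.06 to 2.23).

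**Figure D4:**
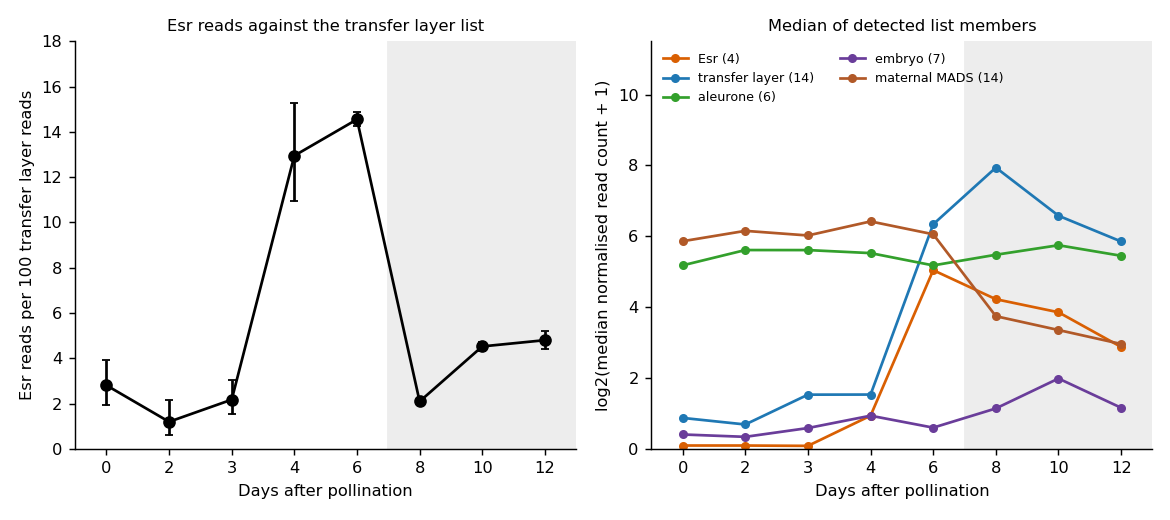
Left, Esr reads per 100 reads of the 14 transfer layer genes by days after pollination with exact 95% intervals; the values at 4 and 6 DAP (12.9 and 14.6) lie above those of all other stages. Right, median normalised read count of the detected members of each marker list as log2(median + 1), where the Esr median is highest at 6 DAP and the transfer layer median at 8 DAP.

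Markers of other kernel parts differed at the step from 6 to 8 DAP. Over all detected models, 3.21% were lower and 1.67% higher by the rule at this step. All 14 maternal floral MADS-box genes, regulators of floral and ovule tissue, were lower in level at 8 DAP than at 6 DAP, 8 of them by the rule. Their summed level was 465 at 8 DAP against 2675 at 6 DAP. The list was taken by symbol, and its member zmm19 took another course, with 4.76, 3.71, 8.43 and 9.68 at 6, 8, 10 and 12 DAP. Of the 7 detected embryo genes the oleosin gene ole1, also active in aleurone, was called higher at 8 DAP, with 62.7 against 1.41 at 6 DAP. The embryo regulator lec1 had 4 reads at 6 DAP and 0 at every other stage, wox5B had 0 reads in all libraries, and wox2A had 8.05 at 8 DAP against 1.41 at 6 DAP. In the same list ole17 had 2.61 at 8 DAP against 0.0366 at 6 DAP. The gene wox9B had 49.6 at 4 DAP and 0.0183 at 6 DAP, a step called lower. The summed level of the embryo list was 75.3 at 8 DAP against 5.54 at 6 DAP, mostly from ole1, while 2 of the 7 genes were lower and the median log2 difference was 0.20. Of 6 aleurone genes, nkd1, nkd2 and vpp1 were higher at 8 DAP by the rule, whereas cr4 had 15.9 against 25.9 and sal1 42.9 against 57.9 at 6 DAP. The summed level of the aleurone list was 626 at 8 DAP against 228 at 6 DAP, of which vpp1 gave 369 and 44.4. The part of these shifts in the Esr values was not tested.

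No CLE peptide gene other than Esr1 to Esr3 was matched by symbol, and none of the 4 matched genes of the receptor pathway was called at any step. The receptor-like protein gene fea2 had 25.3, 18.6, 17.9, 14.3, 14.7, 7.37, 4.40 and 7.21 from 0 to 12 DAP. The receptor genes td1 and fea3 were at most 2.97 and 2.96, both at 0 or 2 DAP, and at most 0.692 from 8 DAP on. The G protein subunit gene ct2 had 86.7 at 8 DAP against 35.6 at 6 DAP and stayed near 100 at 10 and 12 DAP (103 and 102).

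Of 19938 other models that reached a level of 10, 283 (1.42%) had a Pearson correlation of at least 0.9 over the 8 stages with the mean log2 level of the 4 Esr genes, so the shape was not rare. The 10 closest were AC217665.3_FG005, GRMZM2G700896, GRMZM2G120008, GRMZM2G121137, GRMZM2G026956, AC213463.3_FG007, GRMZM2G027472, GRMZM2G106655, p5cr (GRMZM2G068665) and GRMZM2G107931, with correlations of 0.993 for the first and 0.977 for the last. The measure takes shape and not size. AC217665.3_FG005 had 15.3 at 0 DAP and 41.6 at 6 DAP, and p5cr, a gene of proline synthesis, had 15.7 and 42.3, so these were active throughout. GRMZM2G700896 and GRMZM2G120008 had the silent start of the Esr genes, with 0.088 and 0.103 at 0 DAP, 0.877 and 1.25 at 4 DAP, 33.5 and 48.9 at 6 DAP and 19.5 and 30.4 at 12 DAP.

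Taken singly, each Esr gene had another closest model, but the 3 nearest overlapped between Esr1 and Esr3 and between Esr2 and Esr6. GRMZM2G120008 was closest to Esr2 (0.996) and GRMZM2G026956 to Esr6 (0.987), and they had 30.4 and 5.81 at 12 DAP against 48.9 and 10.04 at 6 DAP. GRMZM2G573952 was closest to Esr1 (0.990) and GRMZM2G070399 to Esr3 (0.987). GRMZM2G573952 was also among the 3 nearest of Esr3 (0.980), and GRMZM2G070399 among those of Esr1 (0.983). GRMZM2G700896 was among the 3 nearest of both Esr2 (0.994) and Esr6 (0.9845). GRMZM2G573952 had 26.4, 13, 5.6 and 1.76 at 6, 8, 10 and 12 DAP and GRMZM2G070399 had 20.9, 19.4, 9.68 and 3.34, so both had lower values at each stage after 6 DAP, like Esr1 and Esr3. Among 1394 models with a gene name, the closest after p5cr were the transfer layer genes bap1-b (0.971), betl3 (0.959), betl2 (0.954) and bap-3a (0.951), followed by bap-1a, bap-3b, betl10, HEAT-like and meg1 (0.937 to 0.95). The genes of the marker lists were added to the named models, so the transfer layer genes were in this pool by choice. Neither this ranking nor those of the single Esr genes was repeated under other settings.

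**Figure D5:**
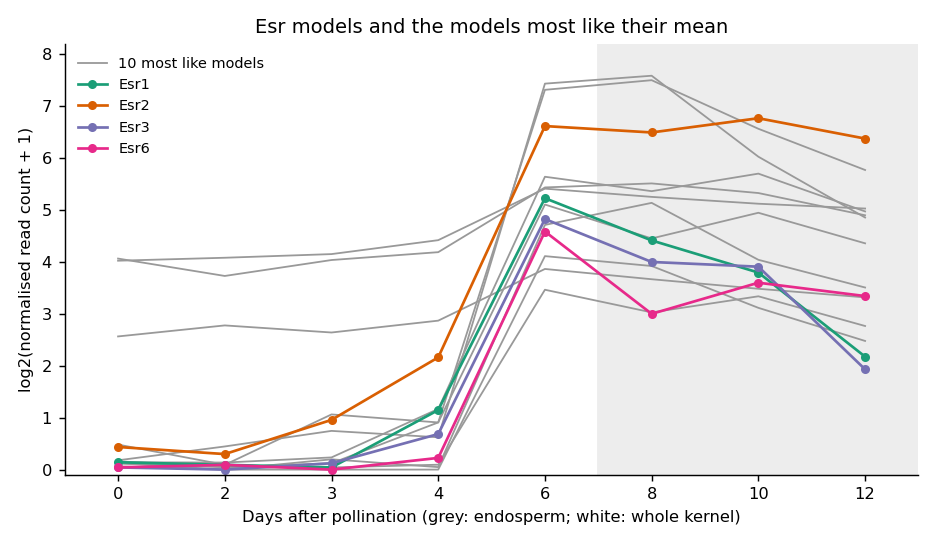
Normalised read count as log2(level + 1) by days after pollination for the 4 Esr genes (coloured) and the 10 models most like their mean (grey). Most grey lines start near 0 and jump at 6 DAP, and 3 start above 2 because the correlation does not weigh the size of the change.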

How the data were processed

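The authors deposited raw read counts, whole numbers for 110028 gene models in each of 9 libraries. Per the labels' protocols, poly(A) RNA was sequenced with the SOLiD 4 system from 1 biological replicate of each stage, out of 3 that were collected. Bedtools is named in the submitters' processing notes. Its role, the aligner, the genome build, the annotation and how multi-mapping reads were counted: not given in the sources used here. Names came from a RefSeq gene table of Zm-B73-REFERENCE-NAM-5.0, whose positions were used only to order neighbouring records.

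Effective library sizes came from edgeR 4.0.16 (TMM over the 9 libraries) in R 4.3.3, and the 0 DAP replicates were summed. At 12 DAP 3 reads are worth a level of 0.528 and at 6 DAP 0.0549. Models with a level of at least 1 in a library (44687) were called detected. Where a stage had 0 reads, a fold was taken against 3 reads at that stage, and its 95% limit was computed from the 0 reads. Simulated counts with known changes were used to test the script that applies the rule. Ratios have exact conditional binomial intervals, levels exact Poisson intervals and shares exact Clopper-Pearson intervals. The technical spread is the 95th percentile of the ratio of level plus 1 between the 0 DAP replicates.

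The members, lists and alternatives were chosen with earlier results of these data known. Named were the 4 Esr genes, the 10 models most like their mean by Pearson correlation of log2(level + 1), overall and among named models, and the nearest for each gene (3 were computed). From the marker lists some members were named, not always those with the largest range over stages, and meg1 and sal1 were not among the 4 largest of their lists. The embryo genes lec1 and wox5B were added after their values were seen. Alternatives were DESeq2 1.42.0 size factors, other totals, a ratio of 2, no minimum level, thinned counts, a pseudocount of 0.1, each technical replicate alone, and the 3 CLE genes summed. Figures were drawn with matplotlib 3.10.9, and intervals came from scipy 1.17.1 under Python 3.11.15. No sequences of these genes were used here.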

Additional observations from a re-analysis of the deposited data

How the results depend on the processing

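The 4 calls at 6 DAP, against 4 DAP and against 2, 3 and 4 DAP each, stood under every scaling and thinning alternative that was run. The looser thresholds, the smaller pseudocount and the dropping of a stage could not remove a call, so they did not test these calls. The 0 DAP replicates do not enter these comparisons. The count of 0 lower models at 8 against 6 DAP became 1 (Esr6) with a ratio of 2, and that at 12 against 10 DAP became 2 (Esr1 and Esr3) with a ratio of 2, 1 (Esr2) by library totals, 1 (Esr3) with a pseudocount of 0.1 and 1 with thinned counts. The 2 models lower at 12 against 8 DAP became 0 when the 3 CLE genes were summed, because Esr2 holds most of those reads, and 3 by library totals. The ratio of 8 to 6 DAP was 0.437, 0.720, 0.430 and 0.239 (Esr1, Esr2, Esr3, Esr6) by library totals and 0.442, 0.728, 0.435 and 0.241 without the zein list; without the 100 most counted models it was 0.492 for Esr1 and 0.811 for Esr2, with DESeq2 size factors 0.992 for Esr2, and 0.773 for the CLE sum. At 12 against 8 DAP the ratio of Esr2 was 0.921 under TMM, 0.980 with DESeq2 size factors, 0.757 without the 100 most counted models, 0.188 without the zein list and 0.134 by library totals, and that of Esr6 lay between 0.190 (library totals) and 1.40 (thinned counts). The list of 10 most like models is unstable: 2 were kept by Spearman correlation, 3 with a pseudocount of 0.1, 6 by library totals and 8 without 12 DAP, a setting chosen after seeing the data. Subtracting the zein share of late reads left Esr2 at 0.892 at 3 DAP and 3.42 at 4 DAP. The models called at 12 against 8 DAP numbered 1497 in all under TMM and 11555 by library totals, and at 12 against 10 DAP 526 and 2830; no minimum level and a ratio of 2 raised every such count over all models by more than 1.5 times. Leaving out either 0 DAP replicate moved no Esr call, but their reads enter only the step from 0 to 2 DAP. No paired analysis was possible because each stage has 1 biological sample. At 12 DAP the 16 to 52 reads of Esr1, Esr3 and Esr6 limit the precision.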
